A study of Homo sapiens with 30 samples.

Results

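The comparison set knockdown of NELF-C against knockdown of NELF-B in T47D cells. Its members were the 3 gene-level arrays labelled siNELF-C and the 3 labelled siNELF-B, 6 of the 15 gene-level arrays and of 30 deposited samples in all. They were chosen by their siRNA label alone, and every one of 22011 transcript clusters was compared. Each sample was an exon array of ribosomal RNA-depleted total RNA, 1 ug per sample, from T47D, an established luminal breast cancer line that responds to steroid hormones. The siNELF-C and siNELF-B cells received 10 nM siRNA against the named subunit, and the control cells the same amount of siRNA against luciferase, a gene that human cells lack. All were transfected with RNAiMAX, given new medium at 48 h and collected after 48 h more, in DMEM with 10% serum. The labels give 1 siRNA name per subunit, and the series text describes each group as 3 technical repeats. The p-values thus reflect how repeats of 1 cell line vary, and their small number sets the precision.

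Negative elongation factor, NELF, binds RNA polymerase II shortly after initiation and holds it near the promoter until the kinase P-TEFb releases it into elongation. NELF-B (COBRA1) and NELF-C/D (TH1L, now NELFCD) are its central subunits, NELF-A contacts the polymerase, and NELF-E carries an RNA recognition motif. Subunits of the complex are known to depend on each other for stability in several cell types, and NELF-B is also known in breast cells as a cofactor that binds the oestrogen receptor. A direct comparison of NELF-C with NELF-B knockdown asks which transcripts differ between the removal of one central subunit and the removal of the other.

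The siNELF-C arrays resembled each other more than the siNELF-B arrays did. Pairwise correlation over all clusters was 0.985 to 0.988 within siNELF-C and 0.917 to 0.973 within siNELF-B, and the median standard deviation of a cluster was 0.155 in siNELF-C and 0.398 in siNELF-B (log2). The interquartile range of an array was 3.61 to 3.75 in siNELF-C, but 3.57, 4.02 and 3.12 in siNELF-B replicates 1, 2 and 3. The mean r of siNELF-B replicates 1, 2 and 3 was 0.972, 0.969 and 0.947 to the siNELF-C arrays, 0.962, 0.945 and 0.934 to the other arrays of their own group, and 0.971, 0.984 and 0.920 to the control arrays. Each siNELF-B array thus correlated more closely with siNELF-C than with its own group, and replicate 2 most closely with control. The mean level of 18 luminal markers was 8.43 to 8.54 in siNELF-C and 8.12 to 8.97 in siNELF-B arrays, while 4 measured basal markers of 10 listed were at 4.99 to 5.34 across both. The 13 mesenchymal, 8 endothelial and 8 leukocyte markers had mean levels between 2.67 and 3.48 in these arrays, and none of them was called. Because the siNELF-B arrays differ in spread, a call below is read together with the position of the single arrays. The limma fit used below gave each cluster 1 estimate of spread, shared by all 5 groups. The median standard deviation was 0.186 in siNELF-A, 0.147 in siNELF-E and 0.148 in control. The SE and p-values below therefore tend to understate the spread of the siNELF-B arrays.

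Transcript clusters are termed genes from here on. A gene was called where limma's adjusted p over the whole table was below 0.05 and the groups differed 1.5-fold or more. Values are deposited log2 RMA values, and a difference is siNELF-C minus siNELF-B on that scale. Of 22011 genes, 471 were called (2.14%), 353 of them higher (1.6%) and 118 lower (0.536%) in siNELF-C. In every one of the 471, all 3 siNELF-C arrays lay on one side of all 3 siNELF-B arrays. That separation alone, without the test, was found with siNELF-C above siNELF-B in 1862 genes (8.46%) and below it in 1006 genes (4.57%). Among genes with 1 symbol, 293 were called higher and 91 lower, and changes of at least 2-fold were called in 200 and 62 genes. The median difference over all genes was 0.05, the median among called genes 1.08 for the higher and -1.01 for the lower. Higher calls made up 74.9% of the total as deposited, but 57.9% after quantile normalization, 61.5% after centring on the array median, 55.0% after centring on the 75th percentile and 54.5% with arrays at a common interquartile range. Centring on the 75th percentile put the median of all genes at -0.07. In a bulk sample, fewer cells that express a gene and less RNA per cell cannot be told apart.

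**Figure D1:**
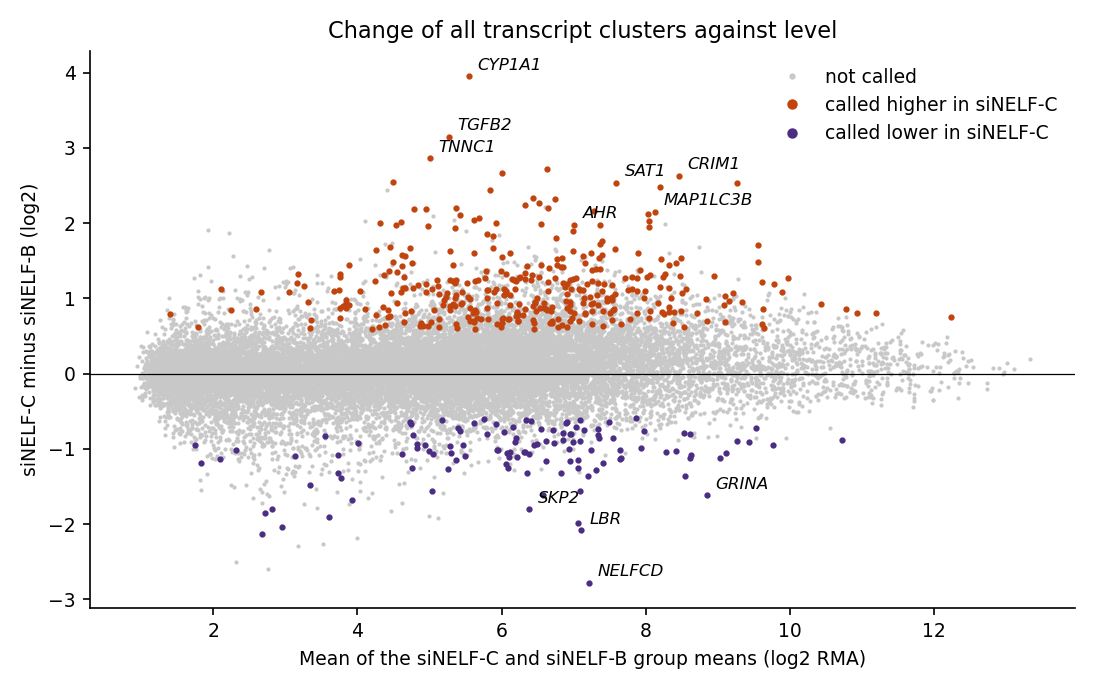
Difference between siNELF-C and siNELF-B (vertical axis, log2) against the mean level of the 2 groups (horizontal axis, log2 RMA), 1 point per transcript cluster. The 353 genes called higher and 118 called lower are coloured, and CYP1A1 at 3.95 and NELFCD at -2.78 are the most extreme called genes in each direction.

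NELFCD, which encodes the subunit targeted in siNELF-C cells, was at 5.92, 5.61 and 5.97 in the siNELF-C arrays, against 8.60, 9.29 and 7.95 in the siNELF-B arrays. The groups did not overlap, and the control arrays averaged 9.25. The difference was -2.78 ± 0.27 (limma SE, spread shared over all 15 arrays), a 6.85-fold lower level (limma, adjusted p = 0.000243). The standard deviation of NELFCD was 0.20 in siNELF-C and 0.67 in siNELF-B (n = 3 each). At exon level all 3 siNELF-C arrays lay below all 3 siNELF-B arrays in 21 of the 26 NELFCD probe sets. The other subunits had no gene-level cluster of their own and were read at exon level, as the median over all probe sets of a symbol. NELFA had 6.44, 6.19 and 6.30 in siNELF-C, against 6.44, 6.28 and 5.81 in siNELF-B, over 15 probe sets. NELFE had 6.94, 6.65 and 6.71 in siNELF-C, against 6.79, 7.18 and 6.52 in siNELF-B, also over 15 probe sets. Both overlapped between the groups, and their differences of 0.13 and -0.06 were not called (limma, adjusted p = 0.863 and 0.948). Of all 16909 symbols read at exon level, 1.02% were called higher and 0.254% lower. No probe set carried the symbol NELFB, which is not analysed here, and the target of siNELF-B therefore gives no check of that label.

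The higher genes were led by a set in which siNELF-C stood far above siNELF-B in every array. The 12 with the widest gap between the nearest arrays of the groups were CYP1A1, TGFB2, TNNC1, CRIM1, OLR1, SPTSSB, SYBU, EMP3, GPRC5A, TMEM45B, ANXA1 and SAT1. All 12 were called under each of 24 other gene-level settings. These comprised other scalings, other fits and each array left out in turn, and also siNELF-B replicates 2 and 3 left out together. Choosing genes by their gap favours those that keep their call, so this is not independent support. In a fit limited to the 6 arrays, which is not among the 24, only TGFB2 was called. They cover a drug-metabolising enzyme, a secreted growth factor, receptors and surface proteins, and enzymes of lipid and polyamine metabolism.

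CYP1A1 encodes a cytochrome P450 that oxidises polycyclic aromatic hydrocarbons and oestradiol and is the classical target of the aryl hydrocarbon receptor. It was at 7.68, 7.46 and 7.43 in siNELF-C, against 3.66, 4.09 and 2.96 in siNELF-B. The control arrays averaged 2.90, siNELF-A 3.48 and siNELF-E 3.90, and no array outside siNELF-C exceeded 4.26. The difference was 3.95 ± 0.26 (SE), or 15.5-fold (limma, adjusted p = 1.77e-05), and all 11 CYP1A1 probe sets were higher in all 3 siNELF-C arrays. The receptor itself, AHR, a ligand-activated transcription factor, had 8.02, 7.99 and 7.99 in siNELF-C, against 6.05, 6.72 and 5.28 in siNELF-B. It was 3.95-fold higher in siNELF-C (limma, adjusted p = 0.00245), and its control mean of 6.89 fell between the groups. AHR binds DNA together with ARNT at a xenobiotic response element whose core is GCGTG. The 250 bases upstream of the CYP1A1 start are shown here because this gene changed most; the sequence is from RefSeq (GRCh38.p14), chr15:74725529-74725778 on the minus strand, with the core match in capitals (both strands searched).

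CYP1A1: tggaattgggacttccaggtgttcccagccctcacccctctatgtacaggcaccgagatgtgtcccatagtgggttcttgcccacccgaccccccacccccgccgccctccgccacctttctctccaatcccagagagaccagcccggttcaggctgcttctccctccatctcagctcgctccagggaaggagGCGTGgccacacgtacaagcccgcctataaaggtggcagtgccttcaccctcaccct

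The window holds 1 match, and the same windows of AHR and TXNRD1 hold 0. Such a short motif is common: it was present in 31.9% of 27305 RefSeq promoter windows, in 42.0% of 226 windows of genes called higher and in 47.1% of 70 windows of genes called lower. A match describes the letters only, and binding was not measured.

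TGFB2, a ligand of the TGF-beta family that signals through serine/threonine kinase receptors, was at 6.87, 6.75 and 6.91 in siNELF-C, against 3.62, 3.84 and 3.62 in siNELF-B. Its arrays were tight in both groups, and the control mean of 3.50 lay close to the siNELF-B arrays. The difference of 3.15 ± 0.12 (SE), 8.87-fold, had the lowest adjusted p of the named genes (limma, 2.96e-08), and TGFB2 was the only gene called when the fit was limited to the 6 arrays of the comparison. Of 24 measured genes of the extracellular matrix and TGF-beta list, TGFB2 was the 1 called, and the list median was 0.29. All siNELF-C arrays lay above all siNELF-B arrays in 9 of the 24, against 8.46% of all genes. With siNELF-B replicate 2 left out, 10 of the 24 were called higher and the median was 0.43, in a fit that called 12.1% of all genes higher. THBS1, a matrix glycoprotein that can activate latent TGF-beta, had a difference of 0.75 (adjusted p = 0.0787) and TGFB3, another ligand, 0.97 (adjusted p = 0.0581), and neither passed the test.

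TNNC1, the calcium-binding troponin subunit of heart and slow skeletal muscle, differed from the other leading genes in which knockdown had moved. It was at 6.76, 6.50 and 6.07 in siNELF-C, against 3.62, 3.69 and 3.42 in siNELF-B, a 7.29-fold difference (adjusted p = 6.33e-05). The control arrays averaged 6.12. Against control, siNELF-C differed by 0.33 (adjusted p = 0.381) and siNELF-B by -2.54 (adjusted p = 7.57e-05). Of all genes, 0.922% were called higher and 5.3% lower in siNELF-C against control, and 0.204% and 4.19% in siNELF-B against control. The siNELF-E arrays averaged 4.01 and the siNELF-A arrays 6.88. TNNC1 was therefore low in siNELF-B and siNELF-E arrays and near or above the control level in siNELF-C and siNELF-A arrays.

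Several leading genes stood on opposite sides of the control. CRIM1, a membrane protein with cysteine-rich repeats that binds bone morphogenetic proteins, was at 9.84, 9.77 and 9.74 in siNELF-C, against 7.32, 7.58 and 6.57 in siNELF-B, with a control mean of 8.17. SPTSSB, a small subunit of serine palmitoyltransferase, the first enzyme of sphingolipid synthesis, was at 7.35, 7.36 and 7.31 in siNELF-C, against 4.49, 5.29 and 4.22 in siNELF-B, with a control mean of 6.01. OLR1, a scavenger receptor for oxidised low-density lipoprotein, was at 7.18, 7.01 and 6.98 in siNELF-C, against 4.88, 4.83 and 4.13 in siNELF-B, with a control mean of 5.59. In each of these genes the control mean fell between the groups. CRIM1 differed 6.20-fold, SPTSSB 6.37-fold and OLR1 5.42-fold (adjusted p = 8.47e-05, 9.45e-05 and 0.000164). Set beside control, the siNELF-C differences of CRIM1, SPTSSB and OLR1 were 1.61, 1.33 and 1.46, and their siNELF-B differences were -1.02, -1.34 and -0.97. These comparisons share their control arrays with each other.

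In a further group the siNELF-B arrays lay around the control level. SYBU, which encodes syntabulin, a kinesin adaptor for cargo transport, was at 6.45, 6.29 and 6.69 in siNELF-C, against 4.39, 4.46 and 4.24 in siNELF-B, 4.33-fold higher (adjusted p = 2.18e-05). GPRC5A, an orphan receptor induced by retinoic acid, was at 8.05, 7.79 and 7.88 in siNELF-C, against 5.62, 6.06 and 5.07 in siNELF-B, 4.98-fold higher (adjusted p = 0.000591). SAT1, the rate-limiting acetyltransferase of polyamine breakdown, was at 8.74, 8.96 and 8.88 in siNELF-C, against 6.40, 7.06 and 5.51 in siNELF-B, 5.81-fold higher (adjusted p = 0.000943). In each of these genes siNELF-B replicate 2 was the highest and replicate 3 the lowest of its group. The siNELF-C arrays were closer together than the siNELF-B arrays in GPRC5A and SAT1. In SYBU the siNELF-B arrays were the closer ones (standard deviation 0.11, against 0.20 in siNELF-C). EMP3, a tetraspan membrane protein, and TMEM45B were 3.92-fold and 5.60-fold higher (adjusted p = 0.000243 and 0.00277). The siNELF-B minus control differences of SYBU, GPRC5A, SAT1, EMP3 and TMEM45B ranged from -0.38 to 0.20, and none was called.

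**Figure D2:**
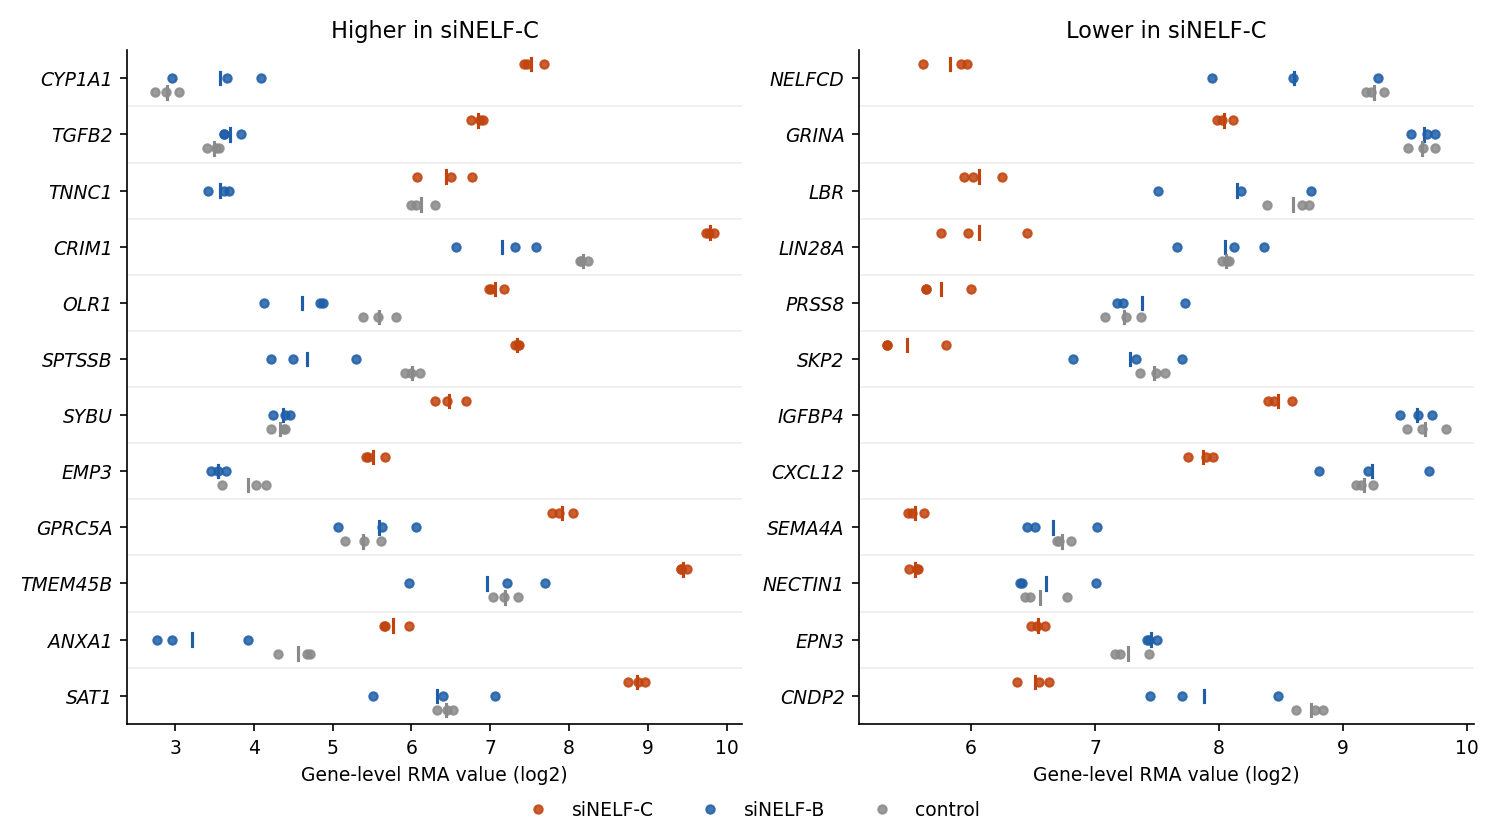
Gene-level value (horizontal axis, log2 RMA) of the 12 genes with the widest gap in each direction, higher in siNELF-C on the left and lower on the right, 1 point per array and a vertical bar at each group mean (n = 3). In all 24 genes the siNELF-C points lie on one side of the siNELF-B points, and TNNC1 is the gene in which control lies with siNELF-C.

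The lower genes showed a narrower range. After NELFCD, the widest gaps belonged to GRINA, LBR, LIN28A, PRSS8, SKP2, IGFBP4, CXCL12, SEMA4A, NECTIN1, EPN3 and CNDP2. These genes, chosen by their gap, were also called under all 24 settings, but none in the fit limited to the 6 arrays. Over these 12 genes siNELF-C lay 0.73 (EPN3) to 3.42 (NELFCD) below control, whereas the siNELF-B minus control differences ran from -0.87 (CNDP2) to 0.18 (EPN3).

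GRINA, a multipass membrane protein of the TMBIM family, was at 7.99, 8.11 and 8.03 in siNELF-C, against 9.55, 9.75 and 9.68 in siNELF-B. The siNELF-B arrays of GRINA were close together and around the control mean of 9.64, and siNELF-C was 3.07-fold lower (adjusted p = 8.47e-05). LBR, the lamin B receptor, ties heterochromatin and lamins to the inner nuclear membrane and has sterol reductase activity. It was at 5.94, 6.01 and 6.25 in siNELF-C, against 8.18, 8.74 and 7.51 in siNELF-B, 4.22-fold lower (adjusted p = 0.000834), with all 3 siNELF-C arrays below siNELF-B in 15 of 18 probe sets. It was the 1 member called of 23 measured genes of the nuclear lamina and import list, whose median was 0.14. Leaving out siNELF-B replicate 2 gave 5 of the 23 called higher, beside LBR as the 1 lower.

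LIN28A, an RNA-binding protein that blocks maturation of the let-7 microRNAs, was at 5.97, 5.75 and 6.45 in siNELF-C, against 8.12, 8.36 and 7.66 in siNELF-B, 3.97-fold lower (adjusted p = 0.00042). SKP2, the F-box protein that marks the cell cycle inhibitor p27 for destruction, was at 5.32, 5.33 and 5.80 in siNELF-C, against 7.33, 7.71 and 6.82 in siNELF-B, 3.49-fold lower (adjusted p = 0.000679). Read as the median of 13 exon-level probe sets, the SKP2 difference was -0.88 (adjusted p = 0.092) and was not called. PRSS8, a membrane-anchored serine protease of epithelia, was at 6.00, 5.64 and 5.64 in siNELF-C, against 7.18, 7.73 and 7.23 in siNELF-B, 3.07-fold lower (adjusted p = 0.00042), with all 12 of its probe sets separated in that direction. In these genes too the siNELF-B arrays lay around the control mean, which was 8.06 for LIN28A, 7.47 for SKP2 and 7.23 for PRSS8.

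IGFBP4, CXCL12, SEMA4A, NECTIN1, EPN3 and CNDP2 completed the set, at 1.88-fold (EPN3) to 2.58-fold (CXCL12) lower in siNELF-C. CXCL12, the chemokine ligand of CXCR4, was at 7.90, 7.75 and 7.95 in siNELF-C, against 9.20, 9.69 and 8.81 in siNELF-B (adjusted p = 0.00198). IGFBP4, which binds insulin-like growth factors, was at 8.40, 8.59 and 8.44 in siNELF-C, against 9.61, 9.72 and 9.46 in siNELF-B (adjusted p = 0.00097). EPN3, an endocytic adaptor, kept its direction at exon level but was not called there (-0.75, adjusted p = 0.061). SEMA4A is a semaphorin, NECTIN1 an adhesion molecule of epithelial junctions and CNDP2 a cytosolic dipeptidase.

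Gene lists were then read by the counts of called members and by their median, set beside 1.6% called higher, 0.536% called lower and the median of 0.05 over all genes. There were 39 lists with 843 measured genes. No list had more than 4 members called in 1 direction, and all medians other than those of the mitosis and oestrogen-induced lists lay between -0.31 and 0.35. The counts of many lists moved with single siNELF-B arrays, as those of all genes did. Over all genes, 12.1% were called higher and 1.01% lower without replicate 2, and 2.09% higher and 4.55% lower without replicate 3, and counts from these fits are read against those shares.

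**Figure D3:**
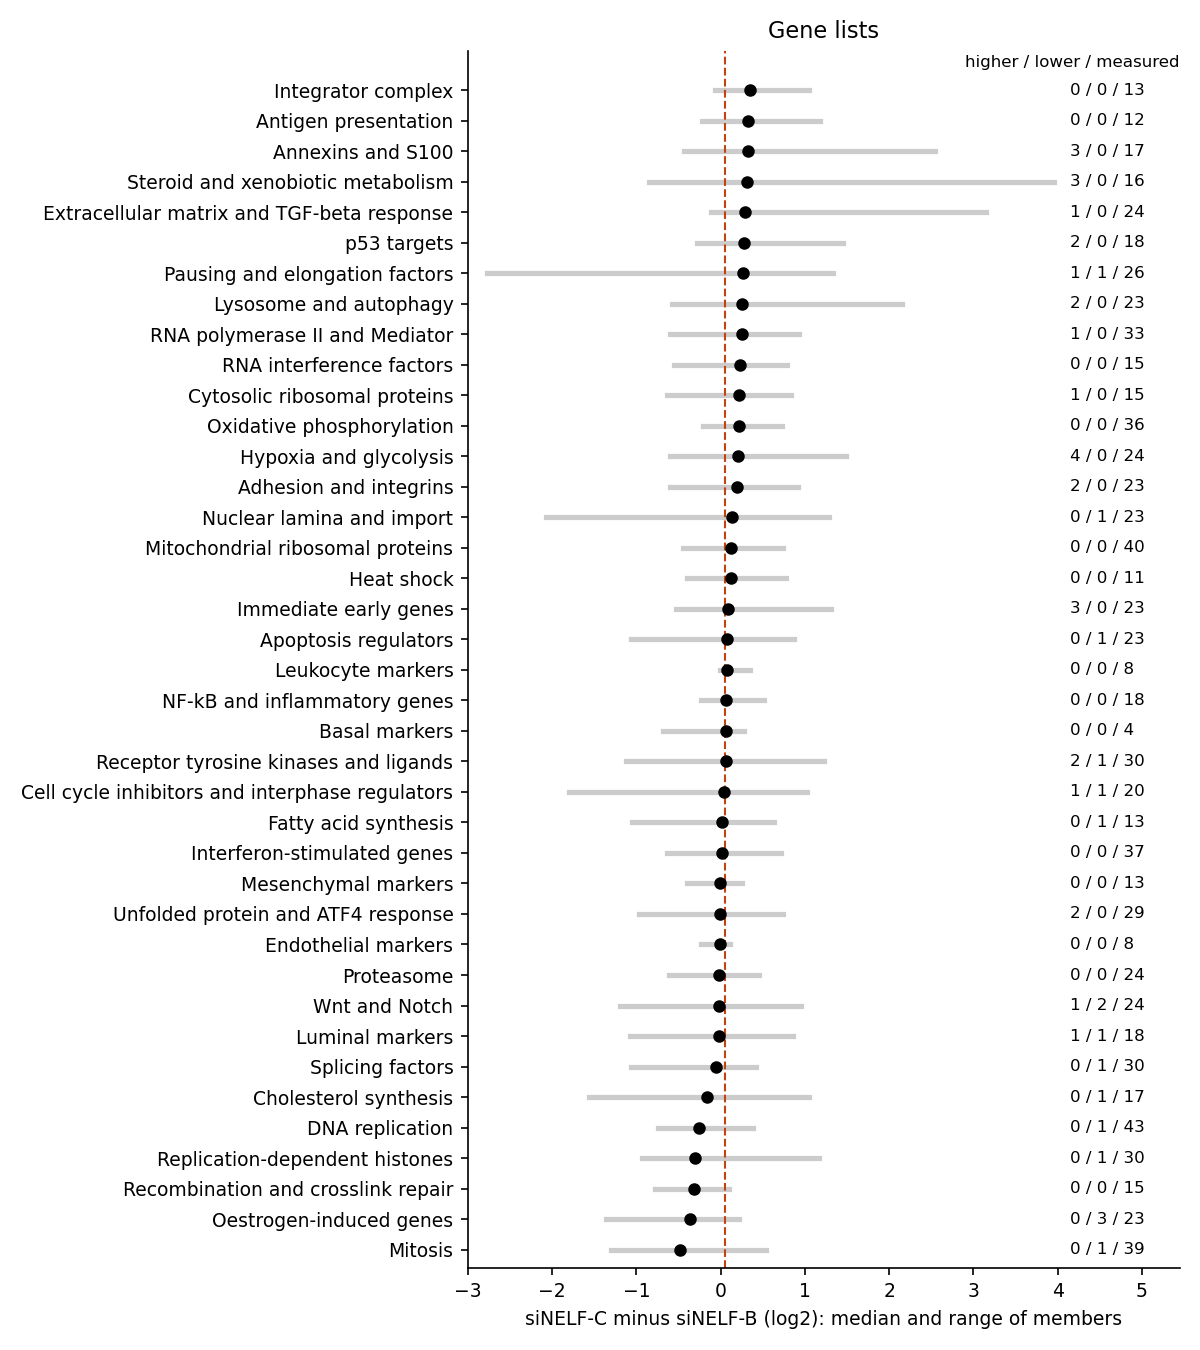
Median (points) and range (bars) of the difference between siNELF-C and siNELF-B (horizontal axis, log2) over the measured members of each list, with the numbers called higher, called lower and measured at the right. The dashed line is the median of all genes, 0.05; the mitosis list has the lowest median, -0.48, and the Integrator list the highest, 0.35.

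In the steroid and xenobiotic metabolism list 3 of 16 measured genes were called higher in siNELF-C than in siNELF-B, CYP1A1, AHR and TXNRD1. The list median was 0.31. TXNRD1, the cytosolic thioredoxin reductase, was at 9.22, 8.88 and 9.07 in siNELF-C, against 7.13, 7.88 and 6.08 in siNELF-B. It was 4.09-fold higher in siNELF-C (limma, adjusted p = 0.00485). Against control, AHR and TXNRD1 differed by 1.11 and 0.94 in siNELF-C (limma, adjusted p = 0.0306 and 0.0884). Their siNELF-B differences were -0.87 and -1.10 (limma, adjusted p = 0.0718 and 0.0586). Only the siNELF-C difference of AHR was called. CYP1B1, another AHR target that hydroxylates oestradiol, behaved differently from CYP1A1. It had 8.06, 7.99 and 7.94 in siNELF-C, against 7.57, 8.21 and 7.14 in siNELF-B, an overlapping difference of 0.36 (adjusted p = 0.56). GSTM3, a glutathione transferase, had a difference of 0.56 (adjusted p = 0.13). The 3 called genes kept their calls under all 24 settings, and 5 of the 16 were called higher when siNELF-B replicate 2 was left out.

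Annexins, which bind membranes in a calcium-dependent way, were represented among the higher genes by ANXA1, ANXA3 and ANXA2, 3 of the 17 measured annexin and S100 genes. ANXA1 was at 5.66, 5.65 and 5.97 in siNELF-C, against 2.77, 3.93 and 2.96 in siNELF-B, 5.82-fold higher (adjusted p = 0.00042), and the control mean of 4.57 fell between the groups. ANXA3 was at 5.73, 6.21 and 6.18 in siNELF-C, against 3.48, 4.71 and 3.36 in siNELF-B, 4.57-fold higher (adjusted p = 0.00196). ANXA2 was 1.59-fold higher (adjusted p = 0.0369), and without siNELF-B replicate 3 its difference of 0.53 was under the 1.5-fold minimum. The ANXA2 call held in 2 of the 15 fits with 1 array left out. The bright members S100A10 and S100A16 had differences of 0.40 and 0.66 and were not called (adjusted p = 0.27 and 0.169). The list's median was 0.33. Without siNELF-B replicate 2 the median was 0.57 and 8 of the 17 were called higher.

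Hypoxia and glycolysis genes gave the largest count in 1 direction, with 4 of 24 measured genes higher in siNELF-C and a median of 0.20. That count was 10, with a median of 0.44, when siNELF-B replicate 2 was left out. ALDOC, a glycolytic aldolase, ENO2, an enolase, ADM, the vasodilator peptide adrenomedullin, and NDRG1, a stress-responsive gene, were 1.96-, 1.80-, 1.63- and 1.54-fold higher (adjusted p = 0.0388, 0.0243, 0.0123 and 0.0262). ADM had 7.41, 7.40 and 7.46 in siNELF-C, against 6.66, 6.87 and 6.63 in siNELF-B. Against control, the siNELF-C differences of ALDOC, ENO2 and ADM were 0.20, 0.04 and 0.21, and none was called. Their siNELF-B differences were -0.77, -0.80 and -0.49 (limma, adjusted p = 0.0583, 0.0297 and 0.0458). NDRG1 differed from control by 0.82 in siNELF-C and 0.20 in siNELF-B (limma, adjusted p = 0.00378 and 0.32). The broadly expressed enzymes of glycolysis were not called. LDHA had 11.48, 11.58 and 11.51 in siNELF-C, against 11.34, 11.55 and 11.70 in siNELF-B, a difference of -0.01 (adjusted p = 0.989), and ENO1 differed by 0.58 (adjusted p = 0.072). After quantile normalization 4 members of the list were called higher and 1 lower, and with arrays at a common interquartile range 4 and 2. Over all genes these settings called 3.31% and 3.03% higher and 2.41% and 2.53% lower. ADM (adjusted p = 0.064) was not called after quantile normalization, and neither was NDRG1, whose difference of 0.56 was under the fold minimum. The ALDOC call held in 3 of the 15 fits with 1 array left out.

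In the immediate early list 3 of 23 measured genes were called higher in siNELF-C, and the median was 0.09. DUSP6, a phosphatase that inactivates ERK, was at 5.14, 4.75 and 5.12 in siNELF-C, against 3.95, 3.94 and 3.91 in siNELF-B, 2.10-fold higher (adjusted p = 0.00725) in arrays that were tight in both groups. DUSP1, another MAP kinase phosphatase, and KLF10, a TGF-beta-inducible zinc finger factor, were 2.30- and 2.48-fold higher (adjusted p = 0.0288 and 0.0254). Against control, the siNELF-C differences of DUSP6, DUSP1 and KLF10 were 0.40, 0.69 and 0.42 (adjusted p = 0.176, 0.116 and 0.343), and none was called. The siNELF-B differences were -0.67, -0.51 and -0.89 (adjusted p = 0.0489, 0.194 and 0.066). JUND and MYC, transcription factors of the same list, were not called, at differences of -0.01 and -0.47 (adjusted p = 0.994 and 0.224).

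Receptor tyrosine kinases differed in part between siNELF-C and siNELF-B. Of 30 measured genes of the receptor and ligand list, 2 were called higher, FGFR2 and ERBB2, and 1 lower, IGFBP4. With siNELF-B replicate 3 left out, 1 was called higher and 6 lower. IGFBP4 binds insulin-like growth factors and is not itself a receptor or ligand, and it is also counted in the oestrogen-induced list. FGFR2 was at 8.05, 7.71 and 7.86 in siNELF-C, against 6.77, 7.17 and 5.99 in siNELF-B, 2.35-fold higher (adjusted p = 0.0154). ERBB2 was at 8.53, 8.38 and 8.34 in siNELF-C, against 7.64, 8.04 and 7.34 in siNELF-B, 1.67-fold higher (adjusted p = 0.036). The nearest arrays of ERBB2 were 0.30 apart. Its call was lost without siNELF-B replicate 3, where the difference was 0.57, and held in 3 of the 15 fits that each left out 1 array. ERBB3, the partner receptor of ERBB2, had a difference of -0.71 with overlapping arrays (adjusted p = 0.179).

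Among cell cycle inhibitors and p53 targets CDKN1A, RRM2B and SKP2 were called. CDKN1A, the p53-induced inhibitor p21, was at 7.42, 7.20 and 7.44 in siNELF-C, against 6.40, 6.90 and 6.53 in siNELF-B, 1.68-fold higher (adjusted p = 0.0228). At exon level its difference was 0.33 and was not called (adjusted p = 0.518). RRM2B, a p53-inducible ribonucleotide reductase subunit, was 2.73-fold higher (adjusted p = 0.0427), and its call held in 2 of the 15 fits with 1 array left out. These were 2 of 18 measured p53 targets, with a list median of 0.28. Leaving out siNELF-B replicate 2 gave 6 of 18 called higher and a median of 0.54. MDM2, the p53 ubiquitin ligase and a p53 target, had 7.16, 6.50 and 6.89 in siNELF-C, against 7.001, 7.70 and 5.59 in siNELF-B, a difference of 0.09 (adjusted p = 0.962). Among 20 measured interphase regulators CDKN1A was called higher and SKP2 lower, while CCND1, cyclin D1, and CDK2 had differences of 0.17 and 0.16 (adjusted p = 0.734 and 0.839). In the fit without siNELF-B replicate 2, 4 of these 20 were called higher and 1 lower.

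Vesicle and adhesion genes added a few calls. MAP1LC3B, the autophagosome protein LC3B, was at 9.36, 8.97 and 9.31 in siNELF-C, against 7.33, 8.07 and 5.79 in siNELF-B, 4.45-fold higher (adjusted p = 0.0154) and measured by 1 exon-level probe set. HEXA, a lysosomal hexosaminidase, was 1.92-fold higher (adjusted p = 0.049), which made 2 of 23 measured lysosome and autophagy genes. The HEXA call held in 2 of the 15 fits with 1 array left out. L1CAM, a neural-type adhesion molecule, was at 6.64, 6.61 and 6.60 in siNELF-C, against 5.86, 5.92 and 5.62 in siNELF-B, 1.76-fold higher (adjusted p = 0.00808), and ITGA5, the fibronectin receptor subunit, 1.58-fold (adjusted p = 0.0154). Those were 2 of 23 measured adhesion genes. ITGA5 was not called after quantile normalization (0.57, limma, adjusted p = 0.062). Its call was also lost with arrays centred on the median or 75th percentile, or at a common interquartile range. When siNELF-B replicate 2 was left out, 6 of the lysosome and autophagy genes and 8 of the adhesion genes were called higher. CDH1, epithelial cadherin, was not called, and the 95% interval of its difference was -0.39 to 0.40.

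Luminal markers, as a list, were centred on -0.02, with 1 of 18 higher and 1 lower, or 2 higher and 1 lower without siNELF-B replicate 2 and 1 higher and 4 lower without replicate 3. KRT8, a simple-epithelial keratin, was at 12.67, 12.63 and 12.55 in siNELF-C, against 11.65, 12.001 and 11.93 in siNELF-B, 1.69-fold higher (adjusted p = 0.0154). With arrays at a common interquartile range the KRT8 difference was 0.34 and was not called (adjusted p = 0.79). CLDN4, a tight junction claudin, was at 8.09, 7.99 and 8.17 in siNELF-C, against 8.91, 9.71 and 8.88 in siNELF-B, 2.12-fold lower (adjusted p = 0.0496), a call that held in 4 of the 15 fits with 1 array left out. KRT19, another luminal keratin, had a difference of -0.07 (adjusted p = 0.893).

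Of 23 measured oestrogen-induced genes 3 were called lower in siNELF-C than in siNELF-B, CXCL12, RAPGEFL1 and IGFBP4. None was called higher, and the median was -0.36. RAPGEFL1 was at 6.34, 6.35 and 6.44 in siNELF-C, against 7.69, 7.91 and 7.005 in siNELF-B, 2.23-fold lower (adjusted p = 0.0126). In 8 of the 23 genes all 3 siNELF-C arrays lay below all siNELF-B arrays, and in 0 above, set beside 4.57% of all genes below and 8.46% above. XBP1, an oestrogen-responsive factor of secretory cells, and FKBP4, a steroid receptor chaperone, had differences of -0.37 and -0.55 and were not called (adjusted p = 0.195 and 0.181). The size of the shift moved with the siNELF-B arrays: the median was -0.16 with 3 called lower without siNELF-B replicate 2, and -0.47 with 8 called lower without replicate 3.

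Mitosis and DNA replication genes depended still more on which siNELF-B array was present. NEK2, a centrosomal kinase, was the 1 gene called of 39 in the mitosis list, at 6.49, 6.70 and 6.84 in siNELF-C, against 7.24, 7.56 and 7.38 in siNELF-B, 1.64-fold lower (adjusted p = 0.0299). CCNB1, cyclin B1, had 9.37, 9.09 and 9.33 in siNELF-C, against 9.66, 10.34 and 9.57 in siNELF-B, and its difference of -0.59 was not called (adjusted p = 0.191). The median of the mitosis list was -0.48, but -0.04 with 1 called lower and 2 higher without siNELF-B replicate 2, and -0.84 with 20 called lower without replicate 3. For DNA replication, 1 of 43 was called, E2F1, with a list median of -0.25, which became 0.04 without replicate 2 and -0.54, with 10 called lower, without replicate 3. The direction of the replication list was therefore not fixed by these arrays. Beside control, the median deviation of the mitosis list from its 15-array mean was 0.93 in siNELF-B replicate 2, just below the control values of 0.94 to 1.24, and -0.82 in replicate 3, while the siNELF-C arrays lay between -0.49 and -0.20.

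**Figure D4:**
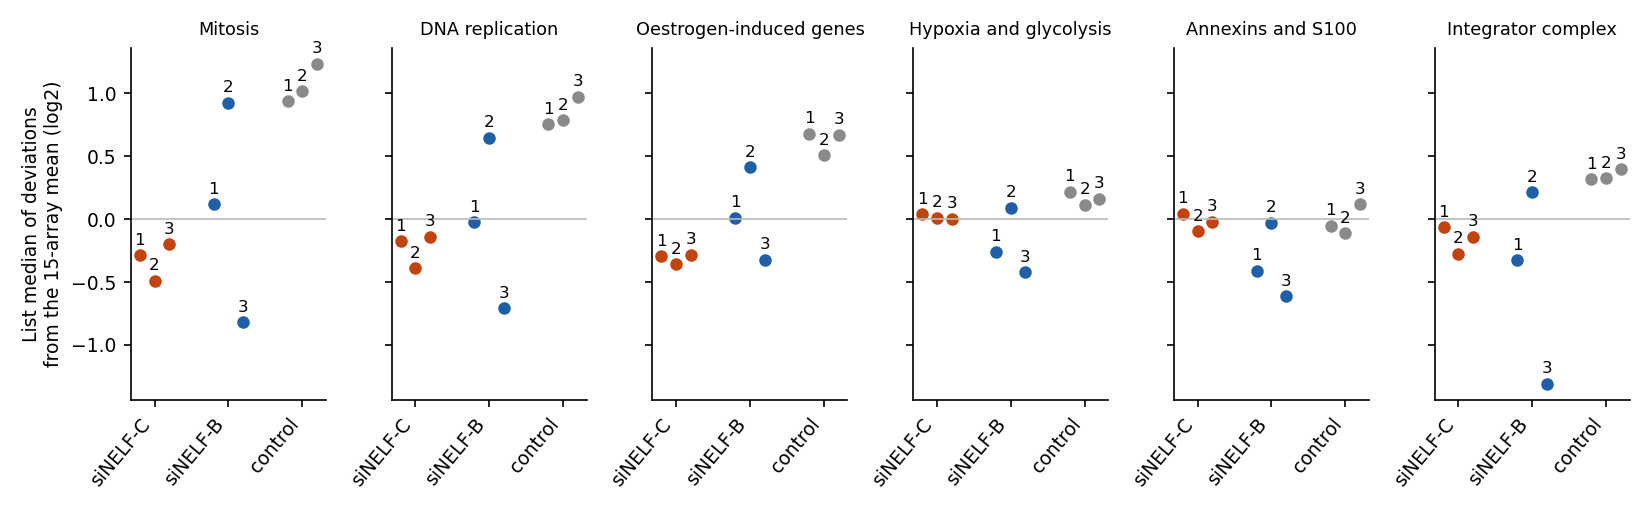
Median, over a list's members, of each array's deviation from the 15-array mean (vertical axis, log2) in 6 lists, with the replicate number beside each point. The 3 siNELF-C points lie close together in each panel, whereas siNELF-B replicate 2 lies highest and replicate 3 lowest of its group, at 0.93 and -0.82 for mitosis and 0.22 and -1.31 for the Integrator complex.

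E2F1, the transcription factor that drives replication genes, was nevertheless steady across the siNELF-B arrays. It was at 6.20, 5.94 and 6.12 in siNELF-C, against 6.68, 6.75 and 6.72 in siNELF-B, 1.55-fold lower (adjusted p = 0.0427), a call that held in 4 of the 15 fits with 1 array left out. E2F1 is known to regulate its own promoter. Its 250 upstream bases, from RefSeq (GRCh38.p14), chr20:33686386-33686635 on the minus strand, are shown with matches to the E2F site TTTNNCGC on either strand in capitals, some of which overlap.

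E2F1: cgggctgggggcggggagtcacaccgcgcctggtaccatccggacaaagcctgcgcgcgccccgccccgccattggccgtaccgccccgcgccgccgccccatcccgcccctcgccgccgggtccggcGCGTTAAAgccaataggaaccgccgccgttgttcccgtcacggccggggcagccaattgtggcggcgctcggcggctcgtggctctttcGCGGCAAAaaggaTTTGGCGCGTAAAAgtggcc

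There were 4 matches in that window and 0 in the windows of NEK2 and SKP2. The site was present in 5.93% of all promoter windows, 7.08% of those of genes called higher and 8.57% of those of genes called lower.

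Replication-dependent histones had a median of -0.30, and 1 of 30 was called, H3C2, at 8.64, 8.91 and 8.89 in siNELF-C, against 9.36, 10.18 and 9.60 in siNELF-B, 1.86-fold lower (adjusted p = 0.0483). H3C2 belongs to a family of near-identical genes, so the reading may include its copies. The H3C2 call held in 3 of the 15 fits with 1 array left out. H2BC14 and H1-4 were lower without passing the test (-0.85 and -0.51, adjusted p = 0.0949 and 0.223). Without siNELF-B replicate 2 the histone median was -0.02, with 6 members called higher and 1 lower.

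Among lipid synthesis genes 1 fatty acid and 1 cholesterol gene were called lower in siNELF-C than in siNELF-B, FASN and HMGCS1. FASN, the fatty acid synthase, was at 8.66, 8.58 and 8.55 in siNELF-C, against 9.88, 9.77 and 9.29 in siNELF-B, 2.07-fold lower (adjusted p = 0.0096), and 41 of its 47 probe sets were separated in that direction. Read as the median of these probe sets, the FASN difference was -0.93 and was not called (limma, adjusted p = 0.059). Against control FASN differed by -0.54 in siNELF-C (adjusted p = 0.0885) and 0.51 in siNELF-B (adjusted p = 0.0915). HMGCS1, which makes the HMG-CoA of the cholesterol pathway, was at 6.25, 6.16 and 6.54 in siNELF-C, against 8.06, 8.79 and 6.78 in siNELF-B, 2.95-fold lower (adjusted p = 0.0378), with siNELF-B replicate 3 only 0.24 above the nearest siNELF-C array. The HMGCS1 call held in 2 of the 15 fits with 1 array left out. Each was the 1 called member of its list, of 13 fatty acid and 17 cholesterol synthesis genes, with medians of 0.02 and -0.16. Counts were 3 fatty acid genes higher and 1 lower, and 2 cholesterol genes higher and 1 lower, without siNELF-B replicate 2, and 3 lower in each list without replicate 3. ACLY, SCD, SQLE and DHCR7, other enzymes of these pathways, had differences of 0.35, -0.44, -0.85 and -0.02 and were not called (adjusted p = 0.121 to 0.985).

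Wnt and Notch genes gave calls in both directions among 24 measured members, with 1 higher and 2 lower, and with 1 higher and 5 lower when siNELF-B replicate 3 was left out. HES1, a Notch-responsive repressor, was 1.94-fold higher in siNELF-C (limma, adjusted p = 0.0314). It had 7.36, 7.41 and 7.51 in siNELF-C, against 6.15, 7.04 and 6.22 in siNELF-B. HEY2, a related repressor, was 2.21-fold lower (limma, adjusted p = 0.0228), with 4.86, 4.50 and 5.04 in siNELF-C, against 5.65, 6.55 and 5.63 in siNELF-B. FZD4, a Wnt receptor, was 2.02-fold lower (limma, adjusted p = 0.017). In HES1 and HEY2 siNELF-B replicate 2 was the array furthest from the other siNELF-B arrays. CASP2, an initiator caspase, was 2.09-fold lower (adjusted p = 0.0281) and the 1 called gene of 23 apoptosis regulators, of which 7 were called higher and 1 lower without siNELF-B replicate 2.

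Few genes of the transcription machinery around NELF were called with all arrays, and more when siNELF-B replicate 2 was left out. Of 26 pausing and elongation factors, NELFCD was called lower and HEXIM2, an inhibitor of P-TEFb, higher, at 5.76, 6.16 and 6.09 in siNELF-C, against 5.10, 5.10 and 5.40 in siNELF-B (1.74-fold, adjusted p = 0.0154). HEXIM2 was not called after quantile normalization (0.70, adjusted p = 0.091). SUPT4H1, a DSIF subunit, differed by 0.84 and SSRP1, a FACT subunit, by -0.28, with overlapping arrays and no call (adjusted p = 0.169 and 0.63). In the fit without siNELF-B replicate 2, 8 of the 26 were called higher and 1 lower. MED24, a Mediator subunit, was 1.88-fold higher (adjusted p = 0.0348), a call that held in 4 of the 15 fits with 1 array left out. It was the 1 called gene of 33 polymerase and Mediator genes. Of these 33, 13 were called higher without replicate 2, and 9 without replicates 2 and 3, where 6.05% of all genes were. Of 13 Integrator subunits none was called, at a median of 0.35, and without siNELF-B replicate 2 the median was 0.78 with 6 called higher. Among 30 splicing factors SRSF10 was 2.08-fold lower (adjusted p = 0.0431) at gene level but -0.32 over its 36 exon-level probe sets (adjusted p = 0.84). Leaving out siNELF-B replicate 3 gave 6 splicing factors called lower.

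In the unfolded protein and ATF4 list 2 of 29 were higher, SLC3A2, an amino acid transporter chain, and CEBPB, a stress-induced transcription factor (1.61- and 1.59-fold, adjusted p = 0.0482 and 0.0256), and 6 were higher without siNELF-B replicate 2. SLC3A2 had no exon-level probe sets under its symbol and was called in 1 of the 15 fits with 1 array left out. RPL28 was the 1 called gene of 15 cytosolic ribosomal protein genes (1.78-fold, adjusted p = 0.0325), and its exon-level difference was 0.14 (adjusted p = 0.838). In the limma fit no member was called among 37 interferon-stimulated genes, 12 antigen presentation genes, 18 NF-kB and inflammatory genes, 11 heat shock genes, 15 recombination and crosslink repair genes, 40 mitochondrial ribosomal protein genes, 36 oxidative phosphorylation genes, 24 proteasome genes or 15 RNA interference factors. The interferon median of 0.01 and proteasome median of -0.02 lay near that of all genes, and the repair median was -0.31. Without siNELF-B replicate 2, 8 oxidative phosphorylation, 8 mitochondrial ribosomal protein, 4 antigen presentation, 3 proteasome, 3 RNA interference, 2 interferon-stimulated, 2 heat shock and 1 NF-kB and inflammatory gene were called higher (12.1% of all genes). Without replicate 3, 6 repair genes were called lower (4.55% of all genes).

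The number of genes called depended on the siNELF-B arrays. The leading genes, chosen by their gap, kept their calls in the 24 settings. Leaving out siNELF-B replicate 2 gave 2673 higher and 222 lower calls, and leaving out replicate 3 gave 459 higher and 1001 lower. Of the 471 calls, 457 remained without replicate 2, 438 without replicate 3, and 415 without both (6.05% of all genes called higher and 2.22% lower), when siNELF-B was represented by 1 array assumed to vary like the other groups. Fewer remained without siNELF-B replicate 1 (186) or without siNELF-C replicate 1, 2 or 3 (142, 205 and 164). In all, 119 of the 471 calls, 100 higher and 19 lower, held under each of the 24 settings. Limited to the 6 arrays, the fit called 1 gene, TGFB2. In that limma fit 1597 of 22011 genes had an unadjusted p below 0.05, against 3206 with all 15 arrays. With no difference in any gene, a share of 0.05 of all genes would be expected below that threshold. An exact permutation test of 3 against 3 arrays cannot go below p = 0.10 and was not used.

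**Figure D5:**
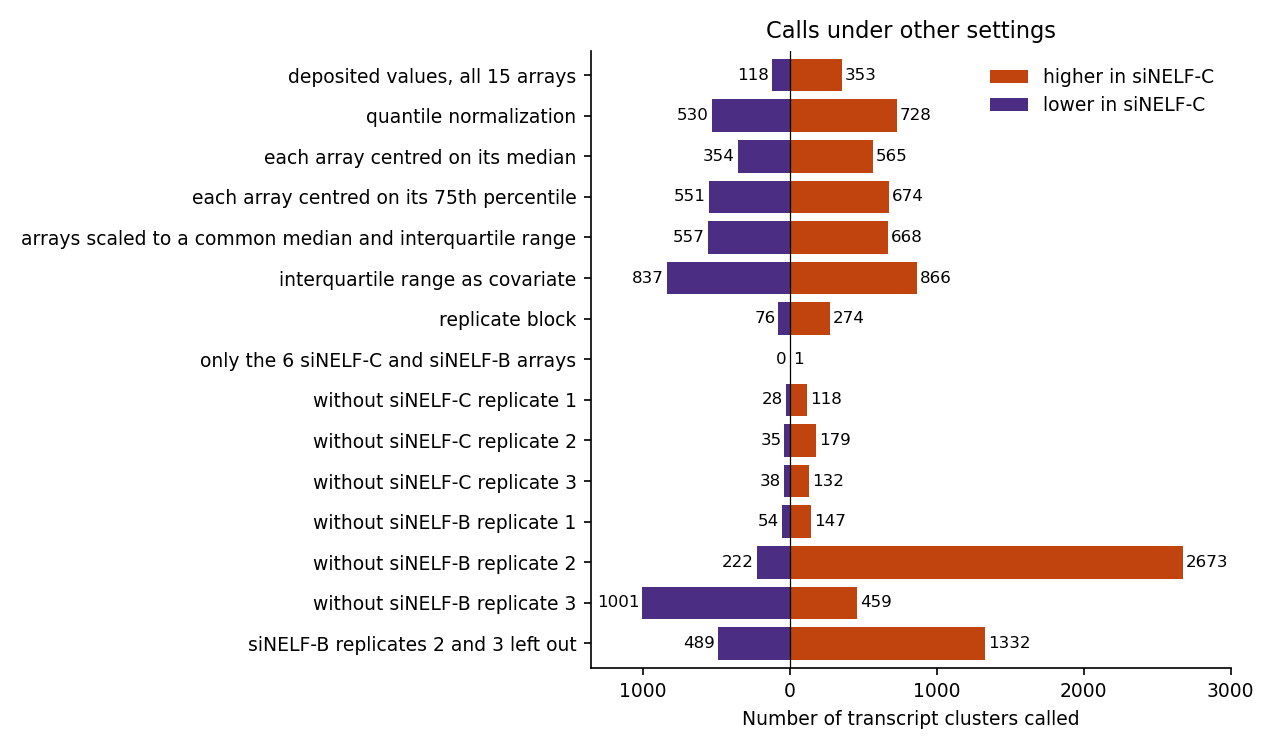
Number of transcript clusters called (horizontal axis), higher in siNELF-C to the right of 0 and lower to the left, under the deposited values and 14 other settings. The deposited values give 353 and 118, leaving out siNELF-B replicate 2 gives 2673 and 222, and leaving out siNELF-B replicate 3 gives 459 and 1001.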

How the data were processed

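Per the labels, the deposited values are log2 RMA (robust multi-array average) values that the authors computed with ArrayAssist for core exons on genome build hg18. Tables were deposited at gene level (22011 transcript clusters) and exon level (287329 probe sets) for the same 15 arrays; software versions are not given in the sources used here. The values were used as deposited, without further background correction.

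Groups and replicate numbers came from the labels. One limma 3.58.1 model (R 4.3.3, lmFit, eBayes) with 5 group means was fitted to the 15 gene-level arrays. The contrast was siNELF-C minus siNELF-B, with Benjamini-Hochberg adjustment over all clusters. On simulated data the fit called 27 of 50 clusters shifted by 1 in either direction, 41 of 50 shifted by 2 and 45 of 50 shifted by -2, with 8 false calls. The simulation gave all groups the same spread, so it cannot show how the fit behaves with the wider spread of siNELF-B. Symbols came from the platform annotation, updated by name through RefSeq: 14432 clusters had 1 symbol, 2408 several (not named here) and 5171 were not listed. The brighter cluster was used where a symbol had 2.

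Named were the NELF subunits, the 12 genes per direction with the widest gap between groups (called, 1 symbol, separated also after quantile normalization, higher mean at or above the 40th percentile), and from each list up to 4 called and 2 bright uncalled members. Members and lists were chosen with earlier results of these data known. Replicate numbers did not pair the arrays: deviations of same-numbered siNELF-C and siNELF-B arrays correlated at -0.03, -0.29 and -0.24.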

Additional observations from a re-analysis of the deposited data

How the results depend on the processing

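The NELFCD difference stayed between -3.11 and -2.44 with 1 array left out and was called in all settings except the 6-array fit (-2.78). Of 471 calls (353 higher, 118 lower), counts moved by over 1.5 times in these settings. Quantile normalization gave 1258 (728, 530; 1247 not overlapping), median centring 919 (565, 354), 75th percentile centring 1225 (674, 551; 1221 not overlapping), a common interquartile range 1225 (668, 557; 1213 not overlapping), the interquartile range as a covariate 1703 (866, 837; 999 not overlapping) and array weights 4067 (2479, 1588; 1313 not overlapping). The weights did not converge, and siNELF-B replicate 1 received 182. The 6-array fit gave 1 (1, 0), exon-level medians 216 of 16909 symbols (173, 43), a 2-fold minimum 262 (200, 62) and siNELF-B without replicates 2 and 3 1821 (1332, 489). With 1 array left out, calls ranged from 146 to 2895 (118 to 2673 higher, 28 to 1001 lower, 146 to 2885 not overlapping); the lowest count came without siNELF-C replicate 1 and the highest without siNELF-B replicate 2. The cause of this range was not tested. The replicate block gave 274 higher and 76 lower calls, 341 of the 471 remaining, although the numbers do not pair the arrays. Among the named genes, 24 gap-ranked genes (NELFCD included) and 37 list-named genes were called, and the others had no call to lose. At exon level 27 lost their call, among them NEK2, E2F1, H3C2 and RRM2B (limma, adjusted p = 0.303, 0.249, 0.721 and 0.175). After quantile normalization 9 lost it and 12 gained one. A sign change was counted as a reversal only where the gene was called in either setting, and none was counted. The uncalled MDM2 went from 0.09 to -0.50 without siNELF-B replicate 3. The call of TGFB2 alone held in the 6-array fit.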

Other observations

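The genes next in order of gap, chosen after their values were seen, extend both directions. PREP, a peptidase that cleaves after proline, was at 7.67, 7.50 and 7.64 in siNELF-C, against 5.67, 5.82 and 4.32 in siNELF-B, 5.04-fold higher (limma, adjusted p = 0.0011). SOD3, the extracellular superoxide dismutase, was at 6.86, 6.73 and 6.79 in siNELF-C, against 4.83, 4.89 and 5.20 in siNELF-B, 3.54-fold higher (adjusted p = 0.00042). CITED2, a transcriptional cofactor that competes for CBP/p300, was at 8.29, 8.31 and 8.24 in siNELF-C, against 6.53, 6.89 and 6.13 in siNELF-B. In these genes siNELF-C lay 1.70 to 1.91 above the control mean. COL5A2, a fibrillar collagen chain, and ALDH1A3, a retinaldehyde dehydrogenase, were 2.54- and 2.36-fold higher, with siNELF-B minus control differences of 0.00 and 0.27 that were not called. On the lower side stood NUP210, a nuclear pore membrane protein, at 6.76, 6.60 and 6.67 in siNELF-C, against 7.95, 8.34 and 7.57 in siNELF-B, and MYBL2, a cell cycle transcription factor, 1.70-fold lower (adjusted p = 0.0228).

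In some of these next-ranked genes the siNELF-B arrays were the ones away from control, as in TNNC1. Among list-named genes, ENO2 and MED24 stood likewise, at 0.04 and 0.15 from control in siNELF-C and -0.80 and -0.76 in siNELF-B. LGALS1, the lectin galectin-1, was at 10.40, 10.31 and 10.20 in siNELF-C, against 8.46, 9.24 and 8.75 in siNELF-B, with a control mean of 10.34. ITM2C, a membrane protein of the BRICHOS family, was at 6.30, 6.47 and 6.36 in siNELF-C, against 5.13, 5.32 and 5.33 in siNELF-B, with a control mean of 6.32. RWDD4 was at 5.42, 5.59 and 5.83 in siNELF-C, against 4.14, 4.43 and 2.24 in siNELF-B, with a control mean of 6.12. Its siNELF-C arrays also lay below the control arrays of 6.04, 5.94 and 6.39. That siNELF-C difference of -0.51 was not called (limma, adjusted p = 0.491), and siNELF-B replicate 3 lay furthest from control. In ATP2A3, a calcium pump of the endoplasmic reticulum, the siNELF-B arrays lay above control. It was at 5.87, 5.74 and 5.62 in siNELF-C, against 6.63, 6.88 and 6.42 in siNELF-B, with a control mean of 5.87. PADI2, a peptidylarginine deiminase, had 5.16, 4.78 and 5.15 in siNELF-C, against 5.74, 5.89 and 5.63 in siNELF-B, with a control mean of 5.15. No cause of these differences was tested.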
